A study of Mus musculus with 11 samples.

Results

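Intergenic peaks of open chromatin that lie 100 to 500 kb from the nearest transcription start site were described in haematopoietic stem cells (HSCs) of young and old mice. Members were the rows of the deposited tables annotated as distal intergenic whose distance to the start site was at least 100 kb and under 500 kb on either side. There were 5699 such peaks among 94410 peaks in all (6.04%) and among 33664 distal intergenic peaks (16.9%), and they carried 1723 genes as their nearest gene. Each row is a called peak of open chromatin. Beyond that, neither its mean level nor its change entered the choice. How peaks of different libraries were merged is not stated in the sources used here. Whether a peak was called through old or young libraries alone therefore cannot be seen.

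ATAC-seq reads open chromatin through a transposase that cuts exposed DNA and adds sequencing adapters there, and it was applied to HSCs purified from mouse bone marrow at steady state. All mice, young and old, had the genotype Gfplc3/Gfplc3, a GFP-tagged LC3 reporter of autophagy whose GFP is lost as autophagosomes are degraded. HSCs of old mice were sorted into AThi (autophagy engaging, low GFP, 3 libraries) and ATlo (not engaging autophagy, high GFP, 3 libraries), which form 3 pairs, while the 5 young libraries were unfractionated. Age in numbers, sex, the number of animals behind a library and the day of each library among the 2 isolation and transposition days are not stated in the sources used here. In both comparisons with young HSCs, age and sorting by GFP differ together and cannot be told apart, and p-values measure only the spread between these libraries. The files give 1 fitted log2 fold change with its standard error (SE) per peak and comparison and no value per library, so values by library are not shown, and the sources used here do not give the depth of each library. In bulk samples, fewer cells of a type and less open chromatin per cell cannot be told apart.

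Intergenic open chromatin far from start sites is where many enhancers and some insulators lie. An enhancer binds transcription factors and can act on a promoter over long distances through looping of the chromatin, and it often skips the nearest gene, so the gene named beside a peak is a position and not a target. In blood stem cells such elements are known for carrying cell type specific control, as at Kit, Meis1, Runx1 and Bach2.

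The sequences of 4 promoters are shown because these genes had both a distal peak at least 2-fold higher and a promoter peak called higher in old AThi and in old ATlo HSCs, so that a distal and a proximal element of the same gene can be set side by side. They are the 4 genes with the smallest p of 15 such genes that met further conditions. These conditions included a single RefSeq promoter and a promoter peak that reached the start site. The printed genes are therefore not the top of all genes with both calls. Cadps and Foxd3 also had both calls, but their promoter peaks lay 411 and 975 bp from the start site. Each run is the 250 bases before the RefSeq start site, 5′ to 3′ on the gene's strand, in RefSeq's GRCm38.p6 build, and capitals mark the GC box GGGCGG, read on either strand (CCGCCC where it lies on the other strand).
Tmem114 (chr16:8425137-8425386, minus strand): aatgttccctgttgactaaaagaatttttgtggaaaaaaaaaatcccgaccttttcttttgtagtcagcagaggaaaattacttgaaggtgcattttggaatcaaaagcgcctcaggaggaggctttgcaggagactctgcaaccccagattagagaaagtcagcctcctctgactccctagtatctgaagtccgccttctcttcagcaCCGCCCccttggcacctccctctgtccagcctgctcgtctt
Fermt1 (chr2:132946037-132946286, minus strand): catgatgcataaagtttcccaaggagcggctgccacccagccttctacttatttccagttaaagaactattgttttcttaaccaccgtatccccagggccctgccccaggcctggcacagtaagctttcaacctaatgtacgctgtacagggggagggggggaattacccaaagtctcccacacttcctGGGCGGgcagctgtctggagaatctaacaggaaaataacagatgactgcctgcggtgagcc
Zfp804a (chr2:82053408-82053657, plus strand): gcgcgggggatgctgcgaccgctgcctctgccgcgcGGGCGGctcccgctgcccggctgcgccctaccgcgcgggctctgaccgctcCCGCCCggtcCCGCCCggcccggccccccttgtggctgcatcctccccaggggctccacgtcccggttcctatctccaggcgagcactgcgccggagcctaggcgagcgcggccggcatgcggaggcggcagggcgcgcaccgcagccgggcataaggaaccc
Ptprk (chr10:28074570-28074819, plus strand): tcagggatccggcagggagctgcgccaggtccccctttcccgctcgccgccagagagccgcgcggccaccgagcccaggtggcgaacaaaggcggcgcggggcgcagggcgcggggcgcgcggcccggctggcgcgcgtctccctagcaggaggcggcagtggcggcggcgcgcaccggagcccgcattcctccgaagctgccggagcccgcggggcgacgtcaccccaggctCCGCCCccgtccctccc

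The promoters of Zfp804a and Ptprk were rich in CG dinucleotides, with 35 and 38 in the window and a GC content of 78.4% and 79.2%. Those of Tmem114 and Fermt1 held 5 each, at a GC content of 47.6% and 52.4%. Over 32851 RefSeq promoters of the same length the median was 6 CG dinucleotides (interquartile range 2 to 16). The GC box stood 3 times in the Zfp804a window and once in each of the other windows, and 32.7% of all these promoters hold it on one strand or the other. The letters of an AP-1 site (TGANTCA, 6.75% of promoters), an ETS site (CCGGAA, 12%), a GATA site (AGATAA, 9.99%), a RUNX site (TGTGGT, 14%), a CCAAT box (CCAAT, 33.8%) and a TATA box (TATAAA, 12.4%) were searched in the same way and were not found in these 4 windows, which says only that those letters are not there. Of the 1723 genes nearest to a distal peak, 1263 matched the promoter table. The peaks themselves are given by position in build mm39, for which no genome was used here, and so without their sequence.

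The promoter peaks served as a check of the labelled cell type. All 33 listed HSC transcription factors had a promoter peak, with a median mean level of 273 normalised counts over the highest peak of each gene. The lowest was Hoxb5 at 41.1, and the median over all 16346 genes with a promoter peak was 139. Mecom had 414 in the authors' deposited table, Meis1 249 and Hlf 139. From other lists, Kit, the receptor for stem cell factor, had 342 and Procr 77.1. Of 28 myeloid genes 25 had one, with a median of 219, and of 22 megakaryocyte and erythroid genes 18, with a median of 236. Of 34 lymphoid genes 33, all but Bach2, had one, with a median of 137. They ran from Il7r at 12.2 and Pax5 at 14.2 to Bcl11a at 334 and Tcf3 at 346 normalised counts in the authors' deposited table. The files listed no promoter peak at the myeloid genes Ctsg, Ly6c2 and S100a8, nor at Gata1, Hba-a1, Hbb-bs and Thbs1 of the megakaryocyte and erythroid list. All 25 stromal and endothelial genes had one, with a median of 63.1, a range of 17.5 (Col3a1) to 293, and 87.0 at Cdh5, the defining endothelial cadherin.

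The distal peaks were narrow and weak. Their median width was 492 bp (range 202 to 2547), against 547 bp over all peaks, and their median mean level was 16.7 normalised counts (range 2.97 to 598), against 27.5 over all peaks and 92.3 at promoters. Per kb of peak the medians were 34.6 for the distal peaks, 51.4 for all peaks and 107 for promoters. They made up 2.82% of the summed mean level of all peaks, and 255 of them reached 100 normalised counts. Upstream of the nearest start site lay 2707 and downstream 2992. Protein-coding genes were nearest to 3938 (69.1%), long noncoding RNAs to 1402 and microRNAs to 268, and 1504 carried a predicted gene.

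The strongest distal peaks were not called in either comparison with young HSCs. The highest mean levels belonged to peaks of Pex2, a peroxisome assembly factor, at 598 normalised counts, Pcmtd1 at 573, Klf12 at 532, Bach2, a repressor that guides lymphocyte fate, at 399, and Meis1, an HSC homeobox factor, at 384 in the authors' deposited table. Next came Ndufa4 at 383, Arhgap12 at 378, Kit at 373, Veph1 at 329 and Klf4, a zinc finger factor, at 323. In the authors' deposited table their log2 changes lay between -0.28 (Meis1, SE 0.14) and 0.51 (Pex2, SE 0.31) in old AThi against young, and between -0.33 (Meis1) and 0.34 (Pex2) in old ATlo against young. Where the strongest promoters are taken as unchanged, the Bach2 and Klf4 peaks were called higher in both fractions (log2 0.44 and 0.53 in AThi, 0.40 and 0.47 in ATlo). The Kit peak, 155 kb downstream of the start at chr5:75890730-75892559, changed by -0.15 (SE 0.14) in AThi and -0.16 (SE 0.14) in ATlo against young in the authors' deposited table.

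Old AThi HSCs were more accessible than young HSCs at many of the distal peaks and less accessible at few. Of 5489 distal peaks with an adjusted p, 667 were called higher at an adjusted p under 0.05 (12.2%, against a background of 7.57% of all 92579 peaks tested) and 66 lower (1.20%, against 2.74%). Of the higher calls 542 were at least 2-fold, which is 9.87% of tested distal peaks (background 4.99% of all peaks tested). Of the lower calls 45 were, or 0.82% (background 1.11%). Of all distal calls, 91.0% were higher, and of the calls over all peaks 73.4% (96.9% and 93.8% where the strongest promoters are taken as unchanged). The median log2 change was 1.54 among the higher calls and -1.21 among the lower calls. Over the distal peaks as a whole it was 0.16 (interquartile range -0.23 to 0.61, median SE 0.42), against -0.04 over all peaks.

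Old ATlo HSCs gave similar counts against the same young libraries. Of the distal peaks, 644 were called higher (11.7%, background 6.88%) and 37 lower (0.67%, background 2.54%). Of the higher calls 521 were at least 2-fold (background 4.49% of all peaks tested), and of the lower calls 23 (background 0.572%). Higher calls had a median log2 change of 1.52 and lower calls one of -1.12, and the median was 0.18 over the distal peaks (interquartile range -0.17 to 0.64, median SE 0.41), against -0.03 over all peaks. Both comparisons share the 5 young libraries, so their values are given side by side and not as 2 independent results. Where the strongest promoters are taken as unchanged, 1048 distal peaks were higher and 33 lower in AThi, and 1353 higher and 14 lower in ATlo, so the counts depend on the scaling.

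**Figure D1:**
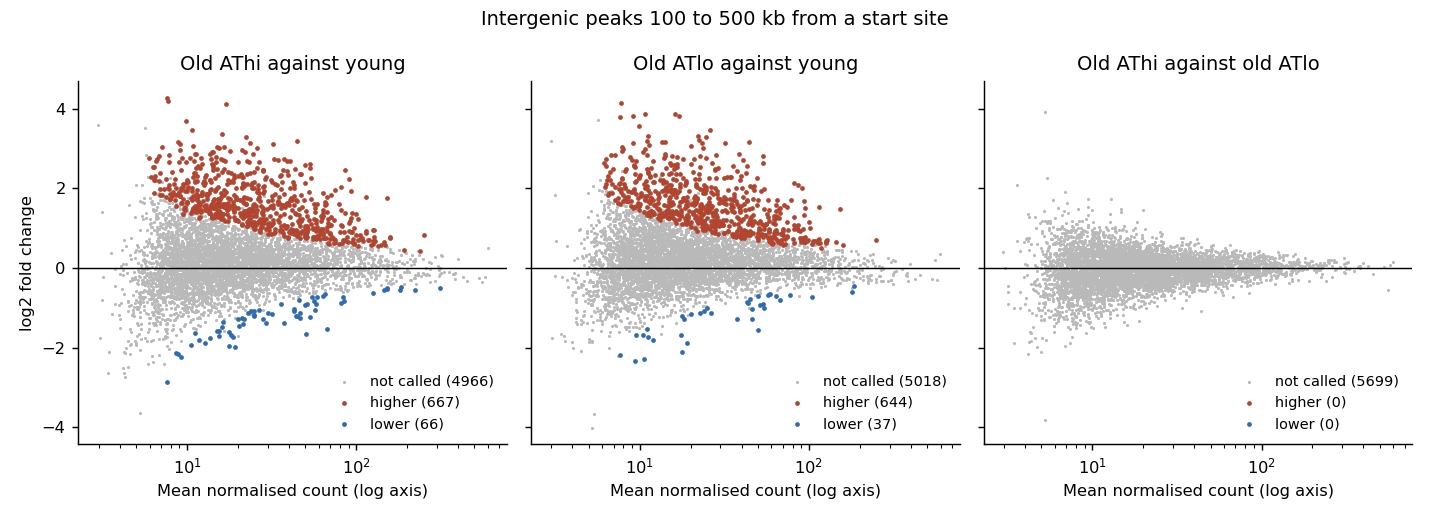
Log2 fold change (vertical axis) against mean normalised count on a log axis for each of the 5699 distal peaks, in old AThi against young, old ATlo against young and old AThi against old ATlo HSCs; red and blue points are peaks called higher and lower at an adjusted p under 0.05. Red points outnumber blue ones in both comparisons with young (667 against 66 and 644 against 37), and the third panel has none of either colour.

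The higher peaks with the smallest p lay near genes of varied function. A peak 496 kb downstream of Tmem114, a transmembrane protein, at chr16:7745538-7746764 had, by the authors' deposited table, a 3.41-fold higher level in old AThi against young (log2 1.77, SE 0.18, adjusted p = 1.52e-19). Its log2 change in old ATlo was 1.48 (SE 0.18) in the authors' deposited table. Near Cadps, which primes secretory vesicles for release, the peak at chr14:9468172-9468676 was 9.10-fold higher in AThi (log2 3.19, SE 0.34) and 8.94-fold higher in ATlo (log2 3.16, SE 0.33) in the authors' deposited table. These 2 peaks stood alone, with no other distal peak in their neighbourhood as defined below. A peak 104 kb upstream of Chrna7, the α7 nicotinic acetylcholine receptor, was 8.66-fold and 8.81-fold higher in AThi and in ATlo (log2 3.11 and 3.14, SE 0.37 each) in the authors' deposited table.

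Further higher peaks included elements near developmental and membrane genes. In the authors' deposited table the log2 changes in AThi and in ATlo were 2.59 and 2.25 (SE 0.29 each) for a peak 143 kb upstream of Pitx1, a homeobox factor of the hindlimb, at chr13:56122012-56122237. A peak 400 kb downstream of Adam6a, a gene within the immunoglobulin heavy chain locus, changed by 2.36 and 1.96 (SE 0.26 each) in the authors' deposited table. Near Fermt1, the integrin activator kindlin-1, the peak at chr2:132955575-132955972 changed by 2.25 and 2.01 (SE 0.27 each) in the authors' deposited table. All of these passed in both old fractions. Peaks near Dcbld2 (2.74 and 2.43), Sh3gl2, the endocytic protein endophilin A1 (1.92 and 1.70), Ccdc3 (2.37 and 2.04) and Naaladl2 (1.80 and 1.53) also rose in both, in the authors' deposited table.

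The smallest p values in ATlo added 4 genes. A peak 157 kb from the microRNA gene Mir7232, at chr6:81714846-81715880, was 6.12-fold higher in AThi (log2 2.61, SE 0.31) and 7.08-fold higher in ATlo (log2 2.82, SE 0.31) in the authors' deposited table. Near Ptprk, a receptor tyrosine phosphatase, the peak at chr10:27739391-27740083 was 7.31-fold higher in AThi and 9.88-fold higher in ATlo (log2 3.30, SE 0.42) in the authors' deposited table. Ube2e1, a ubiquitin-conjugating enzyme, had log2 changes of 2.49 in AThi and 2.57 in ATlo, and Zfp804a, a zinc finger protein, 2.16 and 2.40, in the authors' deposited table. A second Naaladl2 peak, 341 kb upstream, rose by 2.03 (log2) in AThi and 2.14 in ATlo in the authors' deposited table.

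**Figure D2:**
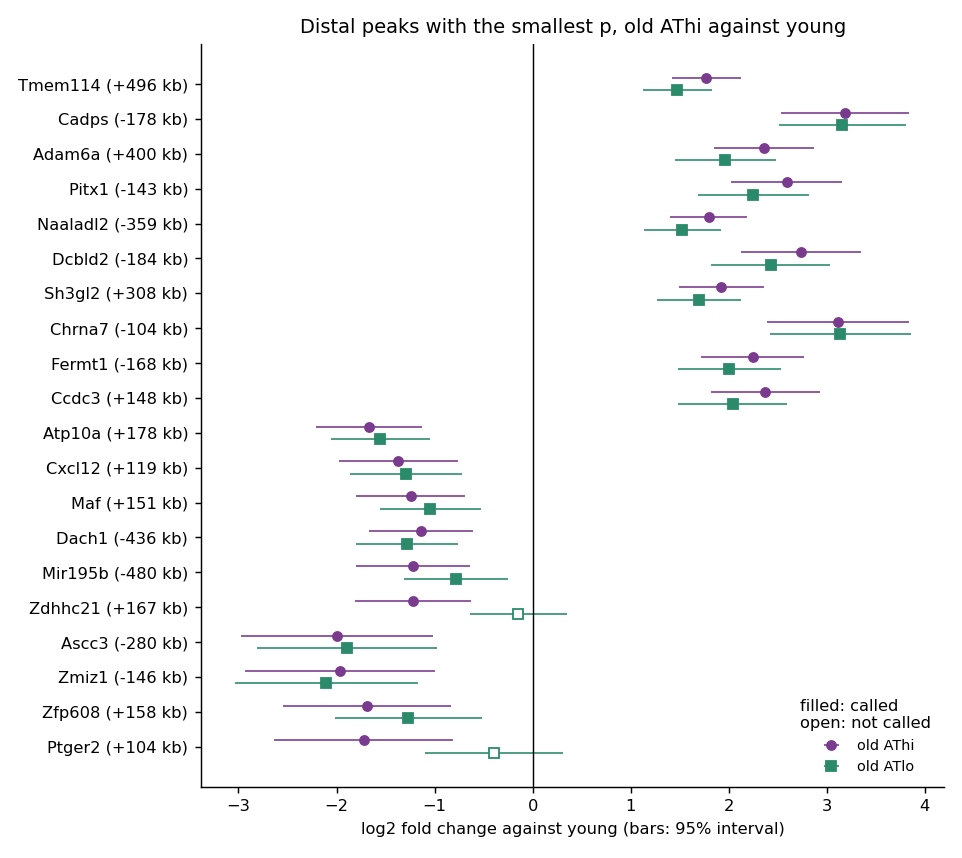
Log2 fold change against young HSCs (horizontal axis, bars 95% intervals) of the 10 higher and 10 lower distal peaks with the smallest p in old AThi, in old AThi (purple circles, upper) and old ATlo HSCs (green squares, lower), with the distance to the start site beside each gene. The higher peaks lie between 1.77 and 3.19 in AThi; among the lower ones the ATlo points of Zdhhc21 (-0.14) and Ptger2 (-0.40) are open, meaning not called.

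Among the lower peaks, a peak 178 kb downstream of Atp10a, a phospholipid flippase, had the smallest p, with log2 changes of -1.67 (SE 0.28) in AThi and -1.55 (SE 0.26) in ATlo in the authors' deposited table. Near Cxcl12, the chemokine that retains HSCs in the marrow, the peak at chr6:117264233-117264852 fell by 1.37 (SE 0.31, adjusted p = 0.000337) in AThi and by 1.29 (SE 0.29) in ATlo (log2, the authors' deposited table). Near Maf, a bZIP factor of macrophages and T cells, the peak at chr8:116282034-116282807 fell by 1.25 (SE 0.28) in AThi and by 1.04 (SE 0.26) in ATlo in the authors' deposited table. Near Dach1, a developmental corepressor, a peak 436 kb upstream fell by 1.14 (SE 0.27) in AThi and by 1.28 (SE 0.26) in ATlo in the authors' deposited table. These 4 passed in both fractions.

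Further lower peaks were taken in order of p in either fraction. In the authors' deposited table Ascc3 (-1.99 and -1.89), Zmiz1, a transcriptional coactivator (-1.96 and -2.10), Zfp608 (-1.69 and -1.27), Mir195b (-1.22 and -0.78) and Psat1 of serine synthesis (-1.94 and -2.28) passed in AThi and in ATlo. Tab2, an adaptor of the kinase TAK1, passed in both at -0.74 and -1.01 in the authors' deposited table. By the authors' deposited table, Nrbf2, a subunit of the autophagy lipid kinase complex, did not pass in AThi (-0.93, adjusted p = 0.0648) and passed in ATlo (-1.12, adjusted p = 0.0168). Where the strongest promoters are taken as unchanged, the calls of Tab2 in AThi (adjusted p = 0.167) and of Mir195b (0.240), Zfp608 (0.0638) and Nrbf2 (0.0837) in ATlo did not pass.

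Between the old fractions no distal peak passed. Of 5699 distal peaks, 0 were called higher or lower in old AThi against old ATlo HSCs by the authors' DESeq2 test (background 0%). At an unadjusted p under 0.05 there were 84 (1.47%, against a background of 1.78% of all 94410 peaks), of which 34 were higher and 50 lower in AThi. The smallest adjusted p over all peaks was 0.999998. Whether the authors' fit took the 3 pairs into account is not stated in the sources used here, and the intervals below rest on it. The median log2 difference was -0.03 over the distal peaks and 0.01 over all peaks. The 95% interval of the difference lay within a 2-fold change either way for 2030 distal peaks (35.6%), against 53.6% of all peaks. That share was 0% for distal peaks under 10 normalised counts and 99.5% from 80 upwards, so at most of the weaker peaks the interval did not exclude a 2-fold difference.

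The peaks with the smallest unadjusted p between the fractions did not pass adjustment. At the peak 201 kb upstream of Prok2, a secreted prokineticin, the log2 change against young was 1.50 (SE 0.38, adjusted p = 0.00161) in AThi and 0.04 (SE 0.42) in ATlo in the authors' deposited table. By the authors' deposited table, the difference of AThi from ATlo was 1.46 (SE 0.44, unadjusted p = 0.000981, adjusted p = 0.999998). The Zdhhc21 peak, near a palmitoyltransferase gene, was at -1.22 in AThi (called) and -0.14 in ATlo (not called), with a difference of -1.07 (95% interval -1.72 to -0.43) in the authors' deposited table. At the Ptger2 peak, near a prostaglandin E2 receptor gene, the values were -1.72 and -0.40, with a difference of -1.33 (95% interval -2.32 to -0.33) in the authors' deposited table. In none of these does the call in AThi alone show that the fractions differ, since the difference itself did not pass.

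The other peaks that the same ranking named were Plxna4 (log2 difference 1.73), Gpam (1.91), Cysltr1 (1.54) and Zfp469 (1.49) on the higher side, none of which was called against young in either fraction, in the authors' deposited table. On the lower side they were Pmepa1 (-1.43), Chsy1 (-0.99) and Rps6kc1 (-3.83, SE 1.33), the last with a mean level of 5.25 normalised counts, in the authors' deposited table. Whether a library had no reads at such a weak peak cannot be seen from the files.

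Higher calls were more frequent from 200 to 400 kb than from 100 to 200 kb. From 100 to 150 kb, 9.77% of the tested distal peaks were called higher in AThi and 9.39% in ATlo. From 150 to 200 kb the shares were 10.8% and 10.9%, and from 200 to 300 kb 16.3% and 15.0%. They were 16.0% and 16.5% from 300 to 400 kb, and 14.0% and 12.6% among the 303 peaks from 400 kb. Lower calls ran between 0.53% and 1.63% in AThi and between 0.36% and 1.40% in ATlo. Outside the distance limits, the shares of higher calls were 5.34% in AThi and 5.28% in ATlo within 20 kb, 7.73% and 6.78% from 20 to 100 kb, and 18.4% and 18.2% among the 474 intergenic peaks from 500 kb. No test of these shares was made.

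**Figure D3:**
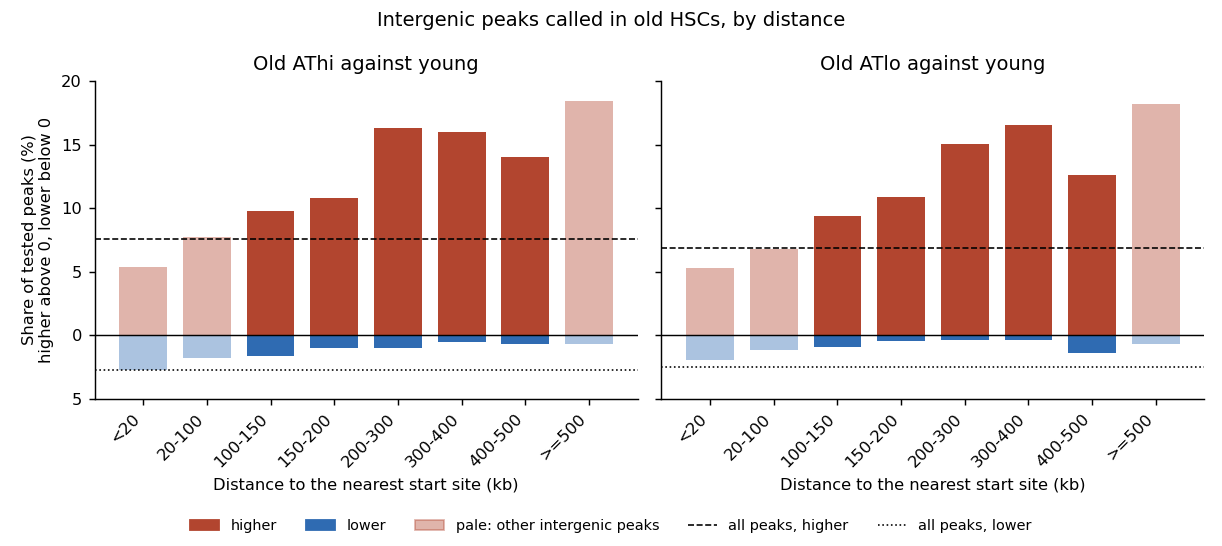
Share of tested intergenic peaks called higher (red, above 0) and lower (blue, below 0) by distance to the nearest start site, for old AThi and old ATlo against young HSCs; dark bars are the bands from 100 to 500 kb, pale bars other intergenic peaks, and the lines give all peaks (7.57% and 6.88% higher, 2.74% and 2.54% lower). Every dark red bar stands above the dashed line, with the tallest at 16.3% in AThi and 16.5% in ATlo.

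The peaks nearest to the limits were mostly not called. Just inside 100 kb, Adtrp (100.03 kb) and Pabpc2 (100.045 kb) had log2 changes of 0.06 and 0.55 in AThi, and just outside, Dtwd1 (99.999 kb) and Sox5os3 (99.988 kb) had -0.20 and 1.07, in the authors' deposited table. Just inside 500 kb, Nr2f1 (499.007 kb) and Zfp608 (497.897 kb) had 1.37 and 0.84, and just outside, St6gal2 (500.386 kb) and Dmac1 (501.043 kb) had 0.02 and -0.22, in the authors' deposited table. Of these 8 peaks only the Nr2f1 peak was called.

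The shares were also set side by side within bands of mean level, since the level sets how small a change can be called. Within each band of mean level the share of higher calls in AThi was larger among the distal peaks than among the remaining peaks outside promoters. It was 6.26% against 2.24% under 10 normalised counts, 10.3% against 4.54% from 10 to 20, and 14.5% against 7.98% from 20 to 40. It was 20.9% against 13.2% from 40 to 80, and 15.0% against 10.7% from 80 upwards. In ATlo the 5 bands held 7.05% against 2.44%, 9.44% against 4.54%, 15.2% against 7.69%, 19.1% against 12.3% and 11.7% against 8.49%. Lower calls in AThi were less frequent among the distal peaks in each band, from 0.35% against 0.70% under 10 to 2.79% against 4.85% from 80. In ATlo they were less frequent in 4 of the bands, from 0.26% against 0.49% under 10 to 0.76% against 4.50% from 80, and more frequent from 40 to 80 (2.21% against 1.66%). These shares are counts of peaks that share libraries, without a test.

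**Figure D4:**
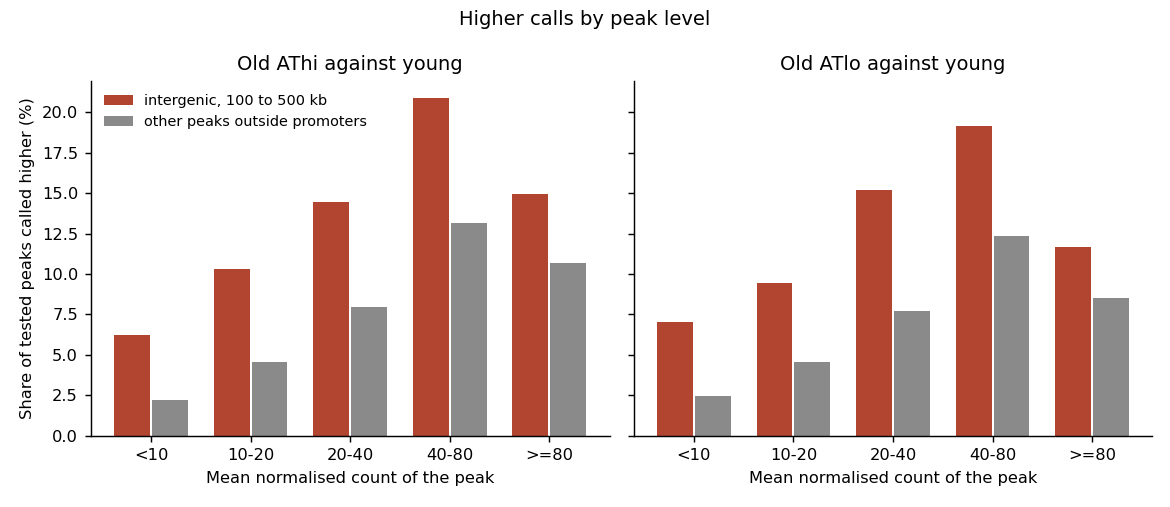
Share of tested peaks called higher than in young HSCs (vertical axis, percent) by band of mean normalised count, for old AThi and old ATlo HSCs; red bars are the distal peaks and grey bars all remaining peaks outside promoters. The red bar is the taller in each of the 5 bands of both panels, with the highest at 20.9% against 13.2% in AThi.

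The share called higher was largest among distal peaks without close neighbours, a description without a test. Peaks were joined into neighbourhoods where the gap between them was small (at most 12.498 kb among those joined, at least 12.509 kb between neighbourhoods), which gave 3741 of them, of which 2596 held a single peak and 94 at least 5. In AThi 14.9% of lone peaks were called higher, 12.0% of those in pairs, 7.52% in groups of 3 to 4 and 9.55% in groups of 5 or more. In ATlo the shares were 14.8%, 11.7%, 6.51% and 8.11%. The number of distal peaks per gene ran the same way: 18.1% in AThi and 18.3% in ATlo where a gene had 1, and 7.60% and 6.67% where it had at least 10. By chromosome the share in AThi ran from 8% on X to 17.4% on 9, leaving out Y with 1 peak.

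The largest cluster near a known gene, 12 peaks over 52.5 kb upstream of Bach2 (chr4:32238126-32290624), held no call in either comparison with young. The 12 peaks at Gm12830 held none either. Chd7, a chromatin remodeller, had 11 peaks over 60.6 kb with 3 called higher in AThi and 2 in ATlo. A cluster of 11 peaks shared between A330074K22Rik and Gse1 had 3 higher in each fraction. Of 5 peaks over 8.07 kb near Max, the dimer partner of Myc, 3 were called higher in each fraction, with medians of 1.24 in AThi and 1.18 in ATlo. Near Smim20, 2 neighbouring peaks had a median of -1.18 in AThi, where both fell, and -0.86 in ATlo, where 1 fell. Across AThi, 44 neighbourhoods held at least 2 higher calls, in ATlo 48, and 8 held calls in both directions in AThi.

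Higher calls were spread over many genes, with few genes holding several. In AThi 505 of the 1723 genes had a higher peak, 117 at least 2 and 10 at least 4, while 62 had a lower peak and 4 at least 2. In ATlo 483 genes had a higher peak, 112 at least 2 and 11 at least 4, while 36 had a lower peak. Over all peaks, 4953 of 20810 genes had a higher peak in AThi and 2198 a lower one. The numbers in ATlo were 4540 and 2093. Genes with at least 2 such peaks were not counted over all peaks. Tmco5 had 5 of 5 peaks higher in AThi (log2 1.24 to 2.46) and 4 in ATlo. Fscb, a sperm flagellum protein, had 5 of 6 higher in both fractions (AThi 0.53 to 3.47, ATlo 0.45 to 3.87 over the 6). Cadm1, a cell adhesion molecule, had 4 of 6 higher in both (AThi 1.04 to 3.04). Foxa2, a pioneer factor of endoderm, had 4 of 5 higher in both, as did Sox11, a factor of neural development (AThi 0.81 to 1.79).

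Naaladl2, Zfp804a and the itch receptor gene Mrgpra3 had all 3 of their distal peaks higher in both fractions, with medians in AThi of 1.80, 2.16 and 1.56. Near Efr3a and near the mitochondrial RNA methyltransferase gene Nsun3, 3 of 4 were higher in both, reaching 3.11 and 4.13 in AThi. Gmds, an enzyme of fucose metabolism, had 4 of 9 higher in AThi and 1 of 9 in ATlo. On the lower side Maf had 2 of 17 lower in AThi and 1 in ATlo, and Mdfic 2 of 4 and 1. Leaving out predicted genes, those with the most distal peaks held few calls: 2 of 23 higher in AThi at Triqk, 2 of 22 at Dad1, 2 of 19 at Fut8, 1 of 17 at Mir5127 and 0 of 18 at Bcor. Map3k7, the kinase TAK1, had 2 of 19 higher and 1 lower in AThi, and Zfp608 1 of 22 higher and 2 lower. None of the 15 peaks near Cxcr4, the receptor of Cxcl12, was called, with medians of -0.56 in AThi and -0.31 in ATlo.

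**Figure D5:**
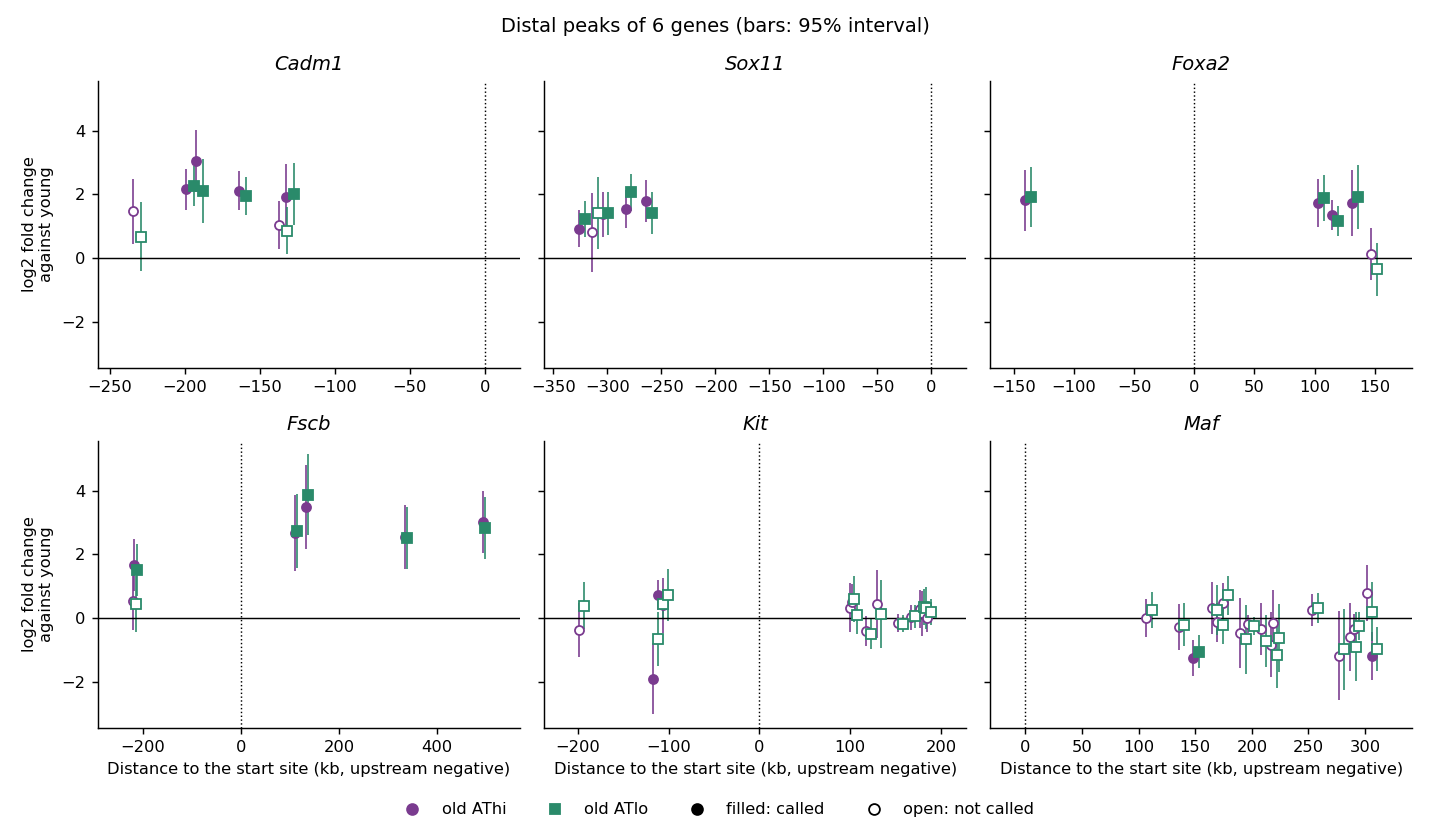
Log2 fold change against young HSCs (vertical axis, bars 95% intervals) of each distal peak by its distance to the start site in kb (upstream negative, start site at the dotted line), for 6 genes in old AThi (purple circles) and old ATlo HSCs (green squares); filled symbols are called. At Cadm1, Sox11, Foxa2 and Fscb most symbols are filled and above 0, at Kit 1 peak is filled above 0 and 1 below in AThi, and at Maf the filled symbols lie below 0.

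At 20 genes distal peaks were called in both directions in AThi, so a gene's distal peaks need not move together. Upstream of Kit, the peak at chr5:75620940-75621498 fell by 1.89 (SE 0.57, adjusted p = 0.014) in AThi, while the one at chr5:75626212-75627017 rose by 0.72 (log2, SE 0.23, adjusted p = 0.0251), by the authors' deposited table. In ATlo neither was called, at -0.65 (SE 0.44) for the first and 0.45 (SE 0.23) for the second in the authors' deposited table. Downstream of Kdr, which encodes a VEGF receptor, the peak 163 kb from its start rose by 1.69 in AThi and 2.05 in ATlo and the one at 119 kb by 0.88 and 0.85 in the authors' deposited table. Between them the stronger peak at 142 kb (185 normalised counts) fell by 0.47 in AThi and 0.46 in ATlo in the authors' deposited table. Cxcl12 had 1 peak higher, 187 kb upstream (1.19 in AThi, 1.32 in ATlo), beside the lower one named above, in the authors' deposited table. Bmper, a BMP-binding protein, had 2 higher and 1 lower in each fraction.

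Distal peaks nearest to developmental transcription factors were called higher at 23.8% in AThi and 25% in ATlo, which is 19 of 80 tested peaks at 13 genes and 20 at 12 genes. Over all distal peaks the shares were 12.2% and 11.7%, and over all peaks 7.57% and 6.88%. The medians over their 84 peaks were 0.47 in AThi and 0.32 in ATlo, against 0.16 and 0.18 over the distal peaks and -0.04 and -0.03 over all peaks. Only Dach1 had a lower call in either fraction. This list, like the others, was chosen with earlier results of these data known, so its share is not independent of them. Near Sox11 lay 4 of the higher calls in each fraction. Near Foxd3, a neural crest factor, the peak 210 kb upstream rose by 2.74 (SE 0.36) in AThi and 2.30 (SE 0.36) in ATlo in the authors' deposited table. Near Sox5 a peak rose by 2.96 (SE 0.42) in AThi and 2.75 (SE 0.42) in ATlo in the authors' deposited table. Both peaks near Sall1, a zinc finger factor of organ development, rose in both fractions, by 1.45 and 1.74 in AThi and by 1.31 and 1.43 in ATlo, in the authors' deposited table. Peaks also rose near Irx3 (1.39 in AThi, 1.09 in ATlo), Foxq1 (1.46 and 1.27), Nr2f2 (1.58 and 1.30), Irx1 (1.83 and 1.90) and Barhl2 (1.01 and 0.68) in the authors' deposited table.

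Of the neuronal adhesion and synapse genes, 24 of 60 had a distal peak, and 11 of 63 tested peaks (17.5%) were called higher in AThi and 12 (19.0%) in ATlo, with none lower, against 12.2% and 11.7% of all distal peaks and 7.57% and 6.88% of all peaks. The medians were 0.52 and 0.62. This list too was chosen with earlier results of these data known. Near Cntnap2, a neurexin-family adhesion protein, 2 peaks rose, by 2.92 and 2.20 in AThi and by 3.17 and 2.34 in ATlo, in the authors' deposited table. Both were weak, at 14.0 and 9.97 normalised counts, with SEs of 0.52 and 0.56 in AThi. Peaks near Tenm2 (2.58 and 2.52) and Tenm4 (2.34 and 2.57), both teneurins, Grm7, a glutamate receptor (2.00 and 1.82), and Epha3, an ephrin receptor (1.96 and 2.21), were called in AThi and in ATlo in the authors' deposited table. By the authors' deposited table, Dpp6, a potassium channel subunit, passed in AThi (2.22, adjusted p = 0.000145) and not in ATlo (1.30, adjusted p = 0.0842). The Tenm2 peak had 11.6 normalised counts and an SE of 0.53 in AThi. Of the cadherins, 3 of 23 genes had a distal peak, and 1 of 7 tested peaks, near Cdh9, rose (2.67 in AThi, 3.05 in ATlo) in the authors' deposited table. That is 14.3%, beside 12.2% and 11.7% of all distal peaks and 7.57% and 6.88% of all peaks. That Cdh9 peak had 7.81 normalised counts, with SEs of 0.70 in AThi and 0.67 in ATlo.

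The HSC transcription factors had 42 distal peaks at 8 of 33 genes, with 3 of 41 tested higher in AThi and 2 in ATlo and none lower (medians 0.13 and 0.17). The shares higher, 7.32% and 4.88%, rest on these few calls. They stand beside 12.2% and 11.7% of all distal peaks and 7.57% and 6.88% of all peaks. The higher peaks included one near Klf4 (log2 1.24 in AThi, 1.33 in ATlo) and one near Runx1, called in AThi (1.39, adjusted p = 0.0197) and not in ATlo (1.09, adjusted p = 0.0972), by the authors' deposited table. The 5 peaks near Meis1 held no call. HSC ageing markers had 12 distal peaks at 5 of 34 genes. Of the 12 tested, none was called in AThi (4 had an unadjusted p under 0.05). In ATlo 4 (33.3%) were higher, 3 near Runx1t1 (1.44, 0.91 and 1.27) and 1 near Alcam (1.56), in the authors' deposited table. These few peaks stand beside 12.2% in AThi and 11.7% in ATlo over all distal peaks, and 7.57% and 6.88% over all peaks. In AThi the Runx1t1 values at the same peaks were 0.71, 0.65 and 0.12, and the Alcam value was 1.10, in the authors' deposited table. The difference between the fractions did not pass at any of them. The promoters of the ageing markers were called more often. Of 33 with a promoter peak, 14 were higher and 0 lower in AThi, and 11 higher and 0 lower in ATlo. Over all genes with a promoter peak, 8.04% were higher in AThi and 6.25% in ATlo.

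Lymphoid genes had 52 distal peaks, with 5 of 49 tested higher and 1 lower in AThi, and 4 higher in ATlo (medians 0.12 and 0.08). That is 10.2% and 8.16% higher, beside 12.2% and 11.7% of all distal peaks and 7.57% and 6.88% of all peaks. The peak 200 kb upstream of Bach2, at chr4:32216239-32217007, rose by 2.29 (SE 0.40, adjusted p = 8.59e-07) in AThi and 2.24 in ATlo in the authors' deposited table, next to the uncalled cluster described above. Prdm1, the plasma cell factor Blimp-1 (1.62 and 1.42), Tox, a T cell factor (1.43 and 1.48), and Foxp1 (0.91 and 1.00) also rose in both in the authors' deposited table. Near Ikzf2, the factor Helios, a peak fell by 0.88 (adjusted p = 0.00229) in AThi and was not called in ATlo (-0.50) in the authors' deposited table.

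Myeloid genes had 27 tested distal peaks, with 1 higher and 3 lower in AThi and 1 lower in ATlo (medians -0.15 and -0.22). The share lower was 11.1% in AThi and 3.70% in ATlo, on these few peaks. Over all distal peaks it was 1.20% and 0.67%, and over all peaks 2.74% and 2.54%. The share higher in AThi was 3.70%, beside 12.2% of all distal peaks and 7.57% of all peaks. The lower ones were at Maf and, in AThi, at Zeb2 (-1.13, adjusted p = 0.041), and the higher one at Nfil3 (1.72) in the authors' deposited table. The Zeb2 call did not pass where the strongest promoters are taken as unchanged (adjusted p = 0.108). Megakaryocyte and erythroid genes had 22 distal peaks, with the 2 Kit calls in AThi and none in ATlo. Of 21 tested, 1 was higher and 1 lower in AThi (4.76% each). Over all distal peaks these shares were 12.2% and 1.20%, and over all peaks 7.57% and 2.74%.

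Stromal and endothelial genes, markers of the cells around HSCs in the marrow, had 48 distal peaks with 6 of 47 tested higher and 3 lower in AThi, and 5 higher and 3 lower in ATlo (medians 0.02 and 0.12). The shares higher were 12.8% and 10.6%, near the 12.2% and 11.7% of all distal peaks and beside 7.57% and 6.88% of all peaks. The share lower was 6.38% in each fraction, against 1.20% and 0.67% of all distal peaks and 2.74% and 2.54% of all peaks. The calls were at Kdr, Cxcl12, Bmper and, in AThi, Cdh5 (1.56 with an adjusted p of 0.00717 in the authors' deposited table). Of the promoters of these 25 genes, 1 was called higher and 0 lower in AThi, and 1 higher and 1 lower in ATlo. The Cdh5 promoter was at -0.18 (SE 0.20) in AThi in the authors' deposited table. The part of such cells in these values was not tested. Of the cytokine, TGF-β, BMP, FGF and WNT genes, 16 of 54 had distal peaks, with 6 of 56 tested higher in AThi, 5 in ATlo and none lower (medians 0.03 and 0.12). That is 10.7% and 8.93% higher, near the 12.2% and 11.7% of all distal peaks and beside 7.57% and 6.88% of all peaks. The higher peaks included those near Bmp7 (1.40 and 1.52), the receptor gene Fgfr2 (1.75 and 1.77), Fgf9 (0.87 and 0.70) and the BMP antagonist Nog (1.20 and 1.13) in the authors' deposited table.

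Promoters of the genes nearest to a higher distal peak were mostly not called. In AThi 312 of the 505 genes with a higher distal peak had a promoter peak, taking the strongest per gene, and 43 of these (13.8%) were called higher and 13 (4.17%) lower. Of 789 genes whose distal peaks held no call, 82 (10.4%) had a higher and 48 (6.08%) a lower promoter, and of all 16346 genes with a promoter peak 8.04% and 4.85%. In ATlo 41 of 306 (13.4%) were higher and 15 (4.90%) lower beside a higher distal peak, against 7.96% and 8.96% of 804 genes without a distal call. No test of these shares was made.

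Promoter and distal peak rose together at the genes whose promoters are printed above because those genes were chosen for both calls. The promoter peaks changed in AThi and in ATlo by 1.74 and 1.64 at Tmem114, 1.36 and 1.13 at Fermt1, 0.94 and 1.13 at Zfp804a and 0.59 and 0.60 at Ptprk in the authors' deposited table. Of the promoters named after their values were seen, those of Cadps (2.25 and 2.21), Sox11 (1.92 and 1.79), Foxd3 (1.57 and 1.32) and Irx3 (1.06 and 0.88) rose too, in the authors' deposited table. At other genes the elements differed in their call or direction. The Pitx1 promoter was at 0.23 (adjusted p = 0.618) in AThi beside a distal peak at 2.59, and the Maf promoter at 0.31 beside a distal peak at -1.25, in the authors' deposited table. The Cxcl12 promoter rose by 1.27 (SE 0.19) in AThi while its downstream distal peak fell by 1.37 and its upstream one rose by 1.19 in the authors' deposited table. The Kit promoter, at -0.37 (adjusted p = 0.0848) in AThi and -0.51 (adjusted p = 0.01) in ATlo, was called in ATlo, where no distal peak of Kit was called, in the authors' deposited table.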

How the data were processed

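ATAC-seq was done on 11 libraries of purified mouse HSCs (3 old AThi, 3 old ATlo, 5 young). Per the labels' protocols, transposition lasted 30 min at 37 °C, fragments of over 1000 bp were cleared from libraries prepared together, and reads were paired and 150 bp long. Per the submitters' processing notes, the tools were DESeq2, ChIPseeker, featureCounts, MACS2, BWA, cutadapt and Trim Galore, with no version. The sources used here do not give any shift of reads for the transposase, the treatment of duplicates or the merging of peaks, which set peak edges and levels.

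The 3 deposited tables hold comparisons made by the authors over 1 set of peaks. The mean level is the authors' normalised count averaged over libraries, a signal value. The log2 fold changes with SEs, the Wald score, the p-values and their Benjamini-Hochberg adjustment are the authors' deposited values from 1 DESeq2 fit over all libraries. An adjusted p was missing for 1831 peaks against young, all with a mean level of at most 5.96, among them 210 distal peaks, which were not called. With 0 columns of values per sample in the files, nothing was refitted. Depth per library is not stated in the sources used here, and precision was taken from the SEs (95% interval, 1.96 SE).

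Counts, medians, neighbourhoods of close peaks and sequence features were computed with Python 3.11.15, pandas 2.3.3, numpy 2.4.6, scipy 1.17.1 and matplotlib 3.10.9. The rescaling, with its Wald test and Benjamini-Hochberg adjustment, was tested on simulated data. Coordinates are 1-based in mm39. The notes name GRCm38 as well, but just 273 of 20791 genes shared their end base with RefSeq's GRCm38.p6 table, which was used for names and promoter sequences alone. Distances are those of the authors' annotation to the nearest start site.

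The distal peaks and the 10 gene lists (368 genes) were chosen with earlier results of these data known. Named peaks followed a rule: for each comparison with young the 10 higher and 10 lower peaks with the smallest p among calls of at least 2-fold, 1 per gene and without predicted genes; between the old fractions 5 in each direction; the 10 with the highest mean level; the 10 genes with the most distal peaks, predicted genes again left out; up to 4 genes of each list; and 2 peaks on each side of each distance limit. Other genes, clusters and promoters were named after their values were seen. Alternatives were a stricter adjusted p, a fold minimum, a minimum level, other distance limits, 1 peak per gene or neighbourhood, and 2 shifts of the log2 scale. One result of the HSC transcription factor list is not reported here.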

Additional observations from a re-analysis of the deposited data

How the results depend on the processing

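The files held no value per library, so leaving out a library, TMM against DESeq2 size factors and edgeR were not run. No paired analysis was possible because the replicate block on the old pairs needs those values. No result reversed under the alternatives run, and between the old fractions the count of calls remained 0 under each of them. The counts of distal peaks called higher and lower were 667 and 66 in AThi and 644 and 37 in ATlo. At an adjusted p under 0.01 they were 441 and 26 in AThi, and 413 and 13 in ATlo. With at least a 2-fold change the lower count in ATlo was 23, and at a mean level of at least 20 the higher counts were 425 and 404. From 150 to 500 kb they were 439 and 28 in AThi, and 425 and 16 in ATlo. With 1 peak per gene they were 311 and 29 in AThi, and 298 and 14 in ATlo. With 1 peak per neighbourhood, an alternative chosen after seeing the data, the lower count in ATlo was 23. Fewer peaks entered in these cases. From 150 kb the share called higher was 13.9% in AThi and 13.5% in ATlo. It was 18.3% and 17.5% with 1 peak per gene and 14.7% and 14.1% with 1 per neighbourhood. All peaks stood at 7.57% and 6.88%. The peak kept per gene or neighbourhood was the one with the highest mean level. The share called higher differed between bands of mean level, as given above. Placing the median of the 2289 strongest promoters (mean level of at least 327) at 0 moved every log2 change by 0.22 in AThi and 0.30 in ATlo. The counts were then 1048 and 33 in AThi and 1353 and 14 in ATlo, or 18.4% and 23.7% higher, beside 13.1% and 16.4% of all peaks. Of the calls in AThi, 96.9% were then higher for the distal peaks and 93.8% for all peaks, and in ATlo 99% and 98.1%, against 94.6% and 73.0% before. That shift ended the calls of 2 of 56 named peaks in AThi (Tab2 and Zeb2) and 3 of 49 in ATlo, and added 8 and 15. The count between the fractions at an unadjusted p under 0.05, 84, was 30 at a mean level of at least 20, 133 with the strongest promoters at 0, 47 from 150 kb, 23 with 1 peak per gene and 48 with 1 per neighbourhood. The cause of these moves was not tested beyond the number of peaks that entered. Depth per library is unknown, and the SE limits what can be called: between the old fractions, 9.86% of distal peaks from 10 to 20 normalised counts had an interval within 2-fold.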

Other observations

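In AThi 11.9% of tested distal peaks near protein-coding genes, 13.4% near long noncoding RNAs and 12.0% near microRNAs were called higher, and 2 of 65 (3.08%) near transcribed pseudogenes. Upstream peaks were called higher at 12.9% and downstream peaks at 11.5%. In ATlo the share by chromosome ran from 6.48% on 19 to 18.3% on 7, leaving out Y with 1 peak. The strongest distal peak, near Pex2 at chr3:5925332-5925965, had 944 normalised counts per kb and an SE of 0.31 in AThi against young in the authors' deposited table, while the median SE was 0.19 over distal peaks of at least 80 normalised counts. Among the calls of single distal peaks, the peak near Nsun3 with the largest change reached a log2 change of 4.13 in AThi and 3.81 in ATlo in the authors' deposited table.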
